A study of Arabidopsis thaliana with 30 samples.

Results

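The shoots of the Arabidopsis thaliana mutant ahp4 were compared with those of the wild type Col across all expressed genes, with mock and cytokinin-treated libraries in 1 fit. All libraries labelled as shoot were used, 14 of the 30 in the series. They comprised 6 ahp4 libraries, 3 mock and 3 treated, and 8 Col libraries, 4 mock and 4 treated. Of the 33199 features measured, 18246 reached an FPKM of 1 in 3 or more of these 14 libraries and were tested. FPKM is the number of sequenced fragments per length of transcript and depth of library. The mutant carried the allele ahp4-2, the one ahp4 allele of the series, in the accession Columbia (Col-0), which was also the wild type. All seedlings were 7 days old and spent 2 h in liquid medium, either with 100 nM 6-benzylaminopurine (BA), a synthetic cytokinin, in 0.1% DMSO or with 0.1% DMSO alone (mock), so mock plants too had been moved into liquid. Seedlings were cut at the hypocotyl and the parts pooled; whether they were parted before or after the treatment is not clear from the labels. Separate cultures are not mentioned in the labels, and the spread behind each p-value may thus be technical.

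Cytokinins are plant hormones that promote cell division, greening and shoot growth. The signal passes along a phosphorelay: receptor histidine kinases in the membrane (AHK2, AHK3, AHK4) pass phosphate to histidine phosphotransfer proteins (AHPs), which carry it to response regulators (ARRs) in the nucleus. Type-B ARRs are transcription factors that switch on cytokinin genes, and type-A ARRs are among their early targets and dampen the signal. AHP4 is a member of the AHP family, and AHP6 lacks the phosphate-accepting histidine and inhibits the pathway.

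The 14 shoot libraries held between 9205127 and 13779004 reads, as rebuilt from the deposited values. Treatment, not genotype, separated them along the leading axis of a principal component analysis, which carried 25.2% of the variance, and none of the first 5 axes parted the genotypes. Shoot markers such as the Rubisco and light-harvesting genes summed to between 38402 and 60346 FPKM in every shoot library, while the 15 root markers summed to at most 9.94 FPKM in Col and 4.49 FPKM in ahp4. The 10 seed and embryo markers summed to at most 2.46 FPKM. The stomatal, trichome, meristem and phloem markers had overlapping sums in both genotypes, for example 48.1 to 88.2 FPKM in Col and 54.1 to 79.9 FPKM in ahp4 for the stomatal lineage. In such bulk samples, fewer cells of a type and less RNA per cell cannot be told apart.

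AHP4, the mutated gene (AT3G16360, TAIR10.1 chr3:5554197-5555789, plus strand), was lower in the ahp4 shoots. The mock libraries had 10.6, 2.66, 4.37 and 3.48 FPKM in Col and 2.49, 1.23 and 0.808 FPKM in ahp4. The BA libraries had 1.88, 1.61, 3.71 and 1.72 FPKM in Col and 0.363, 0.614 and 0.622 FPKM in ahp4. No ahp4 library reached the lowest Col library of its treatment, and Col mock replicate 1 stood far above the other Col libraries. The mean was 3.75 ± 2.93 FPKM in Col (SD, n = 8) and 1.02 ± 0.777 FPKM in ahp4 (SD, n = 6), which rest on 246 and 60 reads and give a ratio of 0.273. The difference was -1.13 ± 0.24 (standard error) on the log2(FPKM + 1) scale, and a two-sided exact permutation test within treatments gave p = 0.000816, the smallest that its 1225 arrangements allow. In the test across all genes the limma adjusted p was 0.611. Reads of the gene were still counted in each ahp4 library. The table gives 1 value for the whole gene, so which part of AHP4 these reads cover is not known here.

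**Figure D1:**
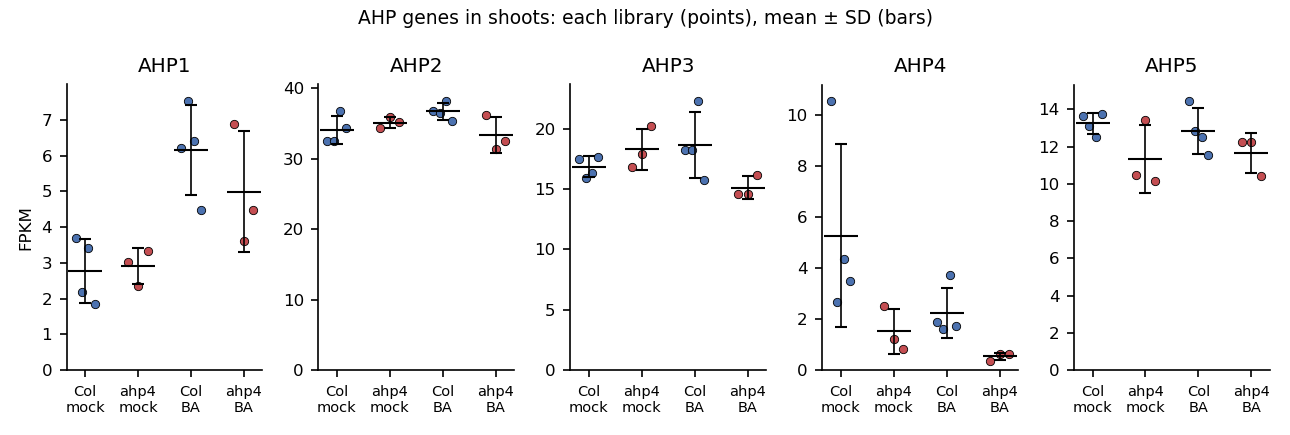
FPKM of the 5 tested AHP genes in each shoot library (points; blue Col, red ahp4), with group mean ± SD, by genotype and treatment. AHP4 has no overlap between genotypes within a treatment, while the libraries of AHP1, AHP2, AHP3 and AHP5 overlap in at least 1 treatment.

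Across the tested genes a single one was called at a limma adjusted p under 0.05, 0.00548% of 18246. It was AT4G06835, a long non-coding RNA with no symbol, and it was higher in ahp4. In TAIR10.1 it is a single exon of 264 bases at chr4:10268702-10268965 on the minus strand, on another chromosome than AHP4. The length implied by the deposited values was also 264. Its RefSeq sequence is printed 5′ to 3′ because AT4G06835 is the single called gene. The capitals mark its first 74 bases, the stretch with the closest match elsewhere in the genome.

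AT4G06835: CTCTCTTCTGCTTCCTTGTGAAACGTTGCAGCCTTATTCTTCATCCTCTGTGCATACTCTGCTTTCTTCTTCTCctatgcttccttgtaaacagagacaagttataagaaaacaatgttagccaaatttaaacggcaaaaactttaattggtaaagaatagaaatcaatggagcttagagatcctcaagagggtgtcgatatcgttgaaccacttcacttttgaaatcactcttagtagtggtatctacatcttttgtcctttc

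The sequence has a GC content of 37.5%, and its longest stretch of codons from an ATG without a stop is 18. A blastn search of the genome with an E-value limit of 1e-05 found 7 other matches, the longest of 148 bases, and each overlapped an exon of another annotated gene. The capitals match 94.6% over 74 bases of AT3G61260, a protein-coding gene with up to 250 FPKM in shoots. Its own difference between genotypes was -0.12 ± 0.10, which limma did not call. The last 63 bases match AT1G29470 at 88.9%, and stretches from the middle match AT2G18110 (77.7% over 121 bases) and AT1G30230 (68.9% over 148 bases). These 3 genes differed by 0.03, -0.06 and -0.02 between genotypes, respectively, none past the test. None of the 7 matches is identical, and all are shorter than the 150 base reads. Whether reads of the matching genes were counted as AT4G06835 was not tested. AT4G06835 lies wholly inside AT4G03005, a non-coding gene of the plus strand at chr4:10268158-10269155 that was not analysed here. Since the use of strand in the counting is not given in the sources used here, reads of these 2 genes cannot be told apart.

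In mock shoots AT4G06835 had 0.436, 0.473, 0 and 0.915 FPKM in Col and 18.04, 20.9 and 36.8 FPKM in ahp4. In BA shoots it had 0.446, 0.883, 0 and 0 FPKM in Col and 21.1, 22.3 and 24.3 FPKM in ahp4. The lowest ahp4 library thus lay far above the highest Col library in both treatments. Behind these values stood 7 reads over the 8 Col libraries and 351 reads over the 6 ahp4 libraries. The means were 0.394 ± 0.375 FPKM (SD, n = 8) and 23.9 ± 6.65 FPKM (SD, n = 6), a ratio of 60.7. On the log2(FPKM + 1) scale, which understates changes of low genes, the difference was 4.17 ± 0.19 with a 95% interval from 3.77 to 4.57 (limma adjusted p = 8.96e-09). It was 4.14 ± 0.27 in mock (adjusted p = 7.07e-06) and 4.19 ± 0.27 in BA (adjusted p = 6.01e-06), and BA itself moved the level by -0.12 (adjusted p = 0.694). The gene passed the filter on low values through its ahp4 libraries alone, and it was also called with no filter. Over 24 settings its difference ran from 4.04 to 6.11, with limma adjusted p from 1.21e-12 to 0.000257. These settings include a pseudocount of 0.1 and limma-voom on rebuilt reads, so their log2 scales differ. On the main scale, leaving out each library gave 4.04 to 4.26. Within mock alone, a pseudocount of 0.1 left no gene called.

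**Figure D2:**
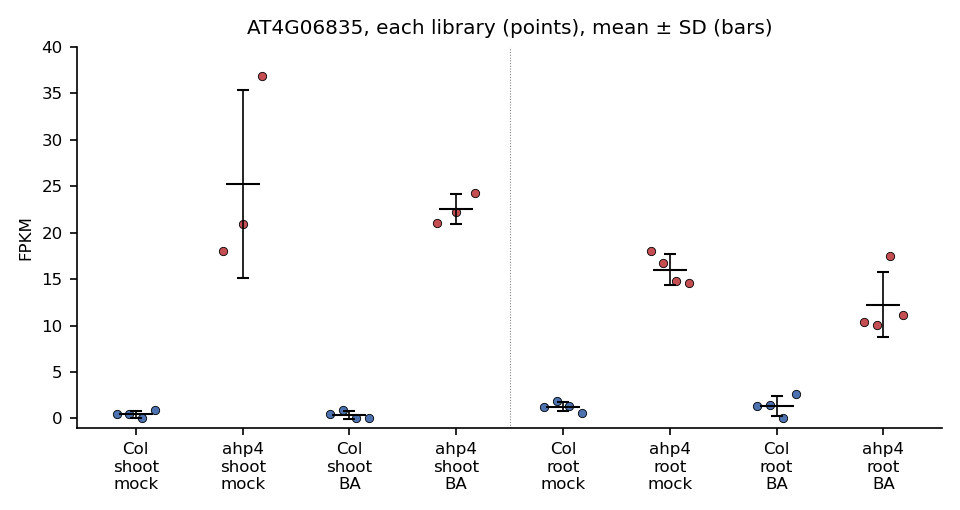
FPKM of AT4G06835 in each of the 30 libraries (points; blue Col, red ahp4), with group mean ± SD, by genotype, organ and treatment. Every ahp4 library lies at 10.098 FPKM or more and every Col library at 2.57 FPKM or less.

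The roots gave a look at the same transcript in libraries that the shoot comparison did not use. Root levels ran from 0 to 2.57 FPKM in Col (n = 8) and from 10.098 to 18.01 FPKM in ahp4 (n = 8), again without overlap, and the difference was 2.77 ± 0.20 (limma adjusted p = 1.31e-06). One root library, ahp4 root mock replicate 1, is ahp4 and mock by its title but Col-0 and BA by its characteristics. Its level of 18.01 FPKM lay among the ahp4 libraries. The shoot difference exceeded the root difference by 1.40, which did not pass the limma test across genes (adjusted p = 0.258). Without Col root BA replicate 3 the difference between organs was called for AT4G06835, so this outcome turned on 1 library. Root and shoot libraries were taken as independent, although they may come from the same seedlings.

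Every other gene stayed short of the threshold. At an unadjusted p under 0.05 there were 985 genes, 5.4% of those tested, with 378 higher and 607 lower in ahp4. These are 2.07% and 3.33% of the genes. Other scalings gave other splits, with 527 higher and 479 lower after quantile normalization and 777 and 246 after scaling to equal totals. No gene was called lower by limma, and limma-voom on the rebuilt reads also called 1 gene, with 966 at an unadjusted p under 0.05. The ahp4 libraries lay wholly above or wholly below the Col libraries in both treatments for 45 genes, 0.247% of those tested, 24 above (0.132%) and 21 below (0.115%). In the same fit BA against mock called 3546 genes, 19.4%, of which 1733 rose (9.5%) and 1813 fell (9.94%).

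The precision of the comparison can be read from its intervals. The median standard error of the genotype difference was 0.11 on the log2 scale. For 17742 genes, 97.2% of those tested, the 95% interval lay inside -1 to 1, and for 86.9% it lay inside a 1.5-fold difference in either direction. Differences of 1 or more in size were estimated for 23 genes, 8 of them with a mean of 5 FPKM or more, against 204 genes for BA. The median difference over all genes was -0.01.

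**Figure D3:**
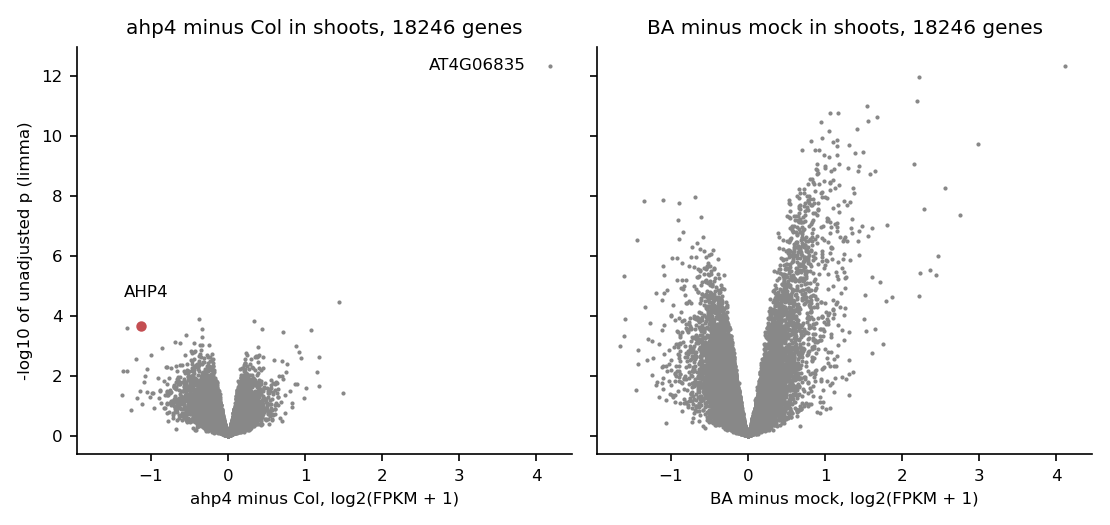
Log2 difference (horizontal) against -log10 of the unadjusted limma p (vertical) for the 18246 genes, for ahp4 minus Col on the left and for BA minus mock on the right, on the same axes. AT4G06835 stands alone at 4.17 on the left, while 3546 genes passed the threshold on the right; AHP4 is the red point.

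Next to AT4G06835, the genes of smallest p were a mixture of small RNAs, low genes and a few well-known enzymes and regulators, and none passed the adjustment. AT5G08805, a small nucleolar RNA, was at 0 in 7 of 8 Col libraries and had 1.09 to 4.29 FPKM in ahp4. This rests on 1 read in Col and 14 in ahp4 (log2 difference 1.45 ± 0.25, adjusted p = 0.317), and the gene passed the filter through its ahp4 libraries alone. The non-coding RNA AT5G09255 had 1.51 to 7.00 FPKM in Col and 0 to 1.64 FPKM in ahp4 (-1.30 ± 0.28, adjusted p = 0.611). It too is low, with 16 reads at most in a library. ATCG00820, encoded in the chloroplast, differed by 1.08 ± 0.23, and its levels of 0 to 1.34 FPKM in Col overlapped those of 1.2 to 4.48 FPKM in ahp4.

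Among better measured genes, DHAR2, a dehydroascorbate reductase that recycles vitamin C, had 16.5 to 21.4 FPKM in Col and 13.6 to 14.6 FPKM in ahp4 under mock. Under BA it had 23.7 to 28.8 FPKM in Col and 17.7 to 22.2 FPKM in ahp4. The genotypes did not overlap within either treatment, and the difference of -0.37 ± 0.07 had a limma adjusted p of 0.611. KAN (KANADI 1), a transcription factor that specifies the lower side of leaves, had 6.88 to 8.39 FPKM in Col and 5.14 to 6.90 FPKM in ahp4. Its difference was -0.33 ± 0.07 (adjusted p = 0.611). TRM19, a TON1 recruiting motif protein, had 10.5 to 14.3 FPKM in Col and 13.0 to 18.1 FPKM in ahp4, a difference of 0.33 ± 0.07 (adjusted p = 0.611). Within each treatment both genes also had no overlap between genotypes.

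GSTU7, a tau-class glutathione transferase, responded to BA in the same fit by 1.16 (adjusted p = 1.05e-05). It had 13.7 to 21.4 FPKM in Col and 8.42 to 9.99 FPKM in ahp4 under BA, and 4.76 to 7.47 against 3.77 to 4.70 FPKM under mock. Its genotype difference was -0.55 ± 0.12 (adjusted p = 0.711). An unannotated transcript model had 1.90 to 2.96 FPKM in Col and 2.67 to 4.71 FPKM in ahp4, a difference of 0.44 ± 0.09 (adjusted p = 0.611). The other named genes of smallest p were AT3G25880 (0.72 ± 0.16), AT2G14878 (-0.34 ± 0.08), AT5G08135 (-0.68 ± 0.16), AT5G26270 (-0.62 ± 0.15) and AT1G22180 (-0.43 ± 0.10), with adjusted p from 0.621 to 0.851.

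Whether the genotype difference depended on BA was tested as an interaction. None of the 18246 genes was called by limma, with 336 at an unadjusted p under 0.05 (1.84%), and none by limma-voom, with 282. Within mock shoots and within BA shoots the single called gene was AT4G06835 in each, with 376 (2.06%) and 817 genes (4.48%) at an unadjusted p under 0.05. The named gene of smallest interaction p was MUG3, a gene derived from a mutator-like transposase. It had 2.06 to 2.27 FPKM in Col mock, 1.87 to 1.97 in ahp4 mock, 1.15 to 1.37 in Col BA and 2.31 to 2.94 in ahp4 BA. Its genotype difference was -0.12 ± 0.13 in mock and 0.66 ± 0.13 in BA, an interaction of 0.78 ± 0.18 with an unadjusted p of 0.000590 that did not pass the adjustment. MBD6, a methyl-CpG-binding domain protein, had differences of 0.24 ± 0.12 in mock and -0.48 ± 0.12 in BA. FBH2 (interaction 0.64 ± 0.17), MEF20 (-0.81 ± 0.23) and AGP26 (-0.75 ± 0.21) were the next in order of p.

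The cytokinin pathway was then followed from receptor to target. Of the 3 receptor genes none was called by limma and none had an unadjusted p under 0.05. AHK3 had 21.3 to 29.4 FPKM in Col and 20.4 to 28.6 FPKM in ahp4, a difference of 0.03 ± 0.07. AHK2 differed by -0.07 ± 0.10 and AHK4 by 0.01 ± 0.10, and all 3 intervals lay inside -1 to 1. Among the other AHP genes, AHP2 was the highest in shoots, with 32.5 to 38.2 FPKM in Col and 31.4 to 36.2 FPKM in ahp4 (-0.05 ± 0.06, but 0.02 with equal totals). AHP1 (-0.10 ± 0.16) and AHP3 (-0.08 ± 0.09) had overlapping libraries, and AHP5 differed by -0.17 ± 0.08 (unadjusted p = 0.0373, adjusted p = 0.851). AHP6 did not pass the filter in shoots, at 0 to 0.405 FPKM in Col and 0 to 0.355 FPKM in ahp4.

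Of the type-B response regulators 5 of 11 were expressed enough to be tested. Their differences ran from -0.01 (ARR2) to 0.16 (ARR1), and the median was 0.03, beside -0.01 over all genes. Of the 10 type-A genes 8 were tested, none was called, and 1 had an unadjusted p under 0.05. Their median was -0.05 (0.01 with equal totals), and each of the 8 intervals lay inside -1 to 1. ARR3 and ARR17 were too low in shoots, with at most 0.538 and 0.931 FPKM in Col.

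ARR4 was the type-A gene of smallest p. Under mock it had 34.0, 36.3, 31.0 and 32.2 FPKM in Col and 31.4, 24.0 and 19.8 FPKM in ahp4, and under BA 164, 129, 163 and 126 FPKM in Col and 154, 123 and 124 FPKM in ahp4. The groups overlapped in both treatments, and the difference was -0.27 ± 0.11 (unadjusted p = 0.0228, adjusted p = 0.851). ARR5 had 2.38, 5.77, 2.76 and 2.33 FPKM in Col mock and 4.15, 2.64 and 1.48 FPKM in ahp4 mock. With BA it had 33.1, 23.8, 32.0 and 20.2 FPKM in Col and 39.7, 26.6 and 38.5 FPKM in ahp4. Its genotype difference was 0.08 ± 0.20, beside a BA effect of 2.99 (adjusted p = 2.13e-07).

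ARR15 went from 0.0926 to 0.853 FPKM in Col mock and 0.117 to 1.24 FPKM in ahp4 mock to 15.1 to 31.6 FPKM in Col BA and 20.1 to 24.1 FPKM in ahp4 BA. The genotypes differed by -0.02 ± 0.19 over both treatments, and the interaction was -0.14 ± 0.38. ARR6 (-0.15 ± 0.33) and ARR7 (0.08 ± 0.28) had the widest errors of the list. In mock shoots Col replicate 2 (20.5 FPKM of ARR6 and 42.8 of ARR7) and ahp4 replicate 1 (12.3 and 37.7 FPKM) stood above the other libraries of their groups. ARR8 (-0.14 ± 0.15), ARR9 (-0.09 ± 0.09) and ARR16 (0.12 ± 0.12) completed the list. The sign of the genotype difference turned on removing 1 library for ARR6, ARR7 and ARR15, with equal totals for ARR15, and with a replicate block for ARR5 and ARR7.

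**Figure D4:**
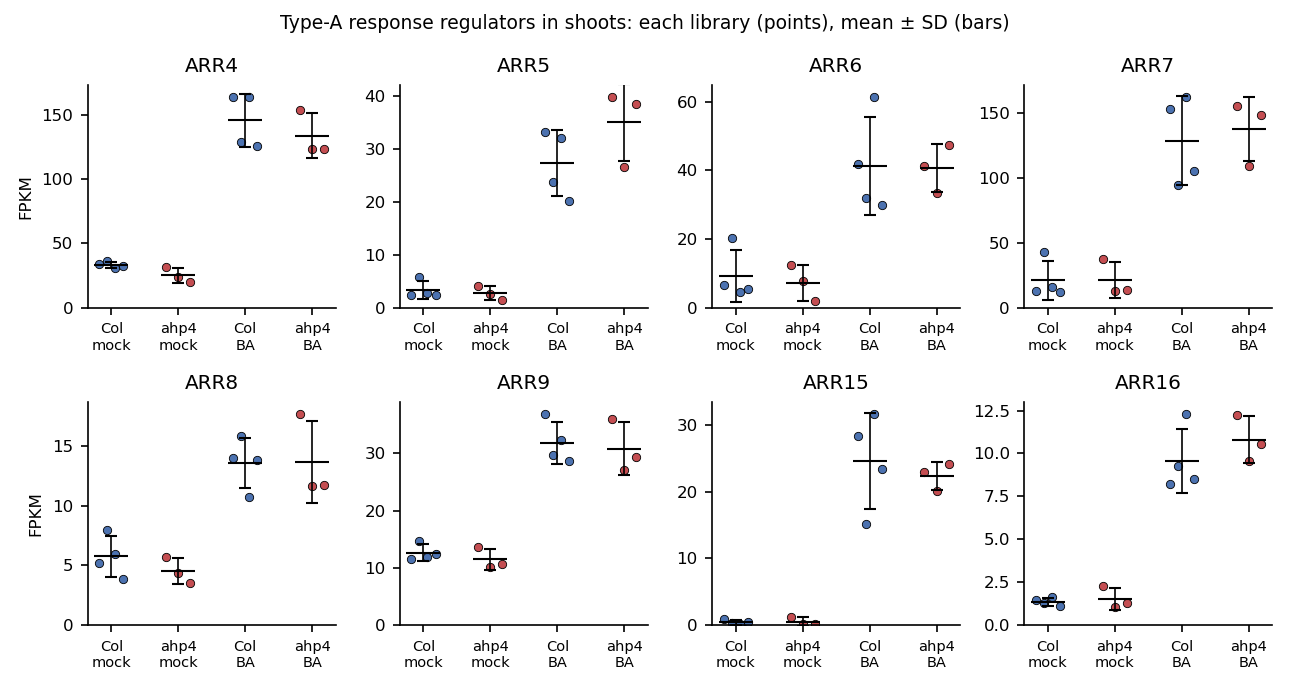
FPKM of the 8 tested type-A response regulators in each shoot library (points; blue Col, red ahp4), with group mean ± SD, by genotype and treatment. BA libraries stand above mock libraries in both genotypes, and the ahp4 and Col libraries of a treatment overlap for each gene.

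Genes that make and remove cytokinin had no called member either. LOG7, an enzyme that frees active cytokinin, had the smallest p of the 8 tested synthesis genes. It had 1.74 to 4.88 FPKM in Col and 0.542 to 2.79 FPKM in ahp4 (-0.65 ± 0.24, unadjusted p = 0.0156, adjusted p = 0.851), and its relatives LOG5 and LOG8 had differences of 0.30 ± 0.18 and 0.22 ± 0.11. The 6 tested breakdown and conjugation genes had a median of -0.11, with the cytokinin oxidase CKX4 at -0.23 ± 0.13. The 11 other cytokinin-induced genes had a median of 0.02. Among them the cytokinin response factors ran from -0.12 ± 0.23 (CRF3) to 0.18 ± 0.18 (CRF5), and the greening regulator GATA21 differed by 0.13 ± 0.08.

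Genes were then taken by list. There were 39 lists of genes by function or origin, among them those of the cytokinin pathway, and 7 lists of cell type markers. Of their 461 tested members none was called by limma, while 33 had an unadjusted p under 0.05, 8 higher and 25 lower (7.16%, beside 5.4% of all genes). Their median was -0.05. Without the organelle-encoded genes, 352 members remained, with a median of -0.04 and 24 at an unadjusted p under 0.05, and for 332 of them the 95% interval lay inside -1 to 1.

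The jasmonate list had the lowest median of the function lists. Jasmonate is a wound and defence hormone, made by the enzymes LOX, AOS, AOC and OPR3 and held in check by the JAZ repressors. Of 17 tested members none was called, and 15 had a negative difference. An unadjusted limma p under 0.05 was found for 6, all lower in ahp4, beside 3.33% of all genes that were lower at that level. The median was -0.34 (-0.33 after quantile normalization and -0.30 with equal totals). AOC3, allene oxide cyclase 3, had 21.6, 18.7, 14.2 and 7.49 FPKM in Col mock and 3.32, 6.12 and 11.8 in ahp4 mock. In BA shoots it had 46.0, 5.54, 4.19 and 34.2 FPKM in Col and 9.79, 2.36 and 7.31 FPKM in ahp4. Col replicates 1 and 4 of the BA group were the highest, and the other 2 Col BA libraries lay within the range of ahp4. The difference was -1.14 ± 0.48 (unadjusted p = 0.0315, adjusted p = 0.851).

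The same 2 Col BA libraries were the highest for LOX3, a 13-lipoxygenase, at 45.4 and 57.2 FPKM against 7.94 to 25.5 FPKM in the other Col libraries and 5.28 to 18.5 FPKM in ahp4 (-0.79 ± 0.33). OPR3, the reductase that acts later in the pathway, had 128 and 132 FPKM there, 46.5 to 63.3 FPKM in the other Col libraries and 31.8 to 62.8 FPKM in ahp4 (-0.54 ± 0.21). JAZ2, a repressor, was steadier. It had 31.6, 23.5, 29.9 and 30.1 FPKM in Col mock, 22.3, 24.7 and 23.3 in ahp4 mock, 34.1, 25.4, 33.7 and 35.5 in Col BA and 27.3, 26.6 and 26.8 in ahp4 BA. Its difference was -0.26 ± 0.08 (unadjusted p = 0.00614, adjusted p = 0.851). AOS (-0.50 ± 0.20) and JAZ1 (-0.49 ± 0.21) were the other 2 members with an unadjusted p under 0.05. The mean log2 level of the 17 members, relative to all 14 libraries, ran from -0.21 to 0.37 in Col mock and -0.45 to 0.13 in ahp4 mock. In BA it ran from -0.41 to 0.83 in Col, with replicate 4 highest, and from -0.39 to 0.06 in ahp4, so the genotypes overlapped in both treatments. VSP2, a storage protein and classical jasmonate target, had a positive difference of 0.32 ± 0.30.

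The touch and wounding list, of genes known to respond to handling, had a median of -0.24 over 9 members, none of them called and none with an unadjusted p under 0.05. ZAT12, a stress-induced zinc finger factor, differed by -0.56 ± 0.42 and ZAT10 by -0.50 ± 0.36. TCH3, a calmodulin-like protein, differed by 0.12 ± 0.09. The mean log2 level of the list ran from -0.47 to 0.97 in Col mock, with replicate 2 highest, and from -0.52 to -0.08 in ahp4 mock. In BA it ran from -0.45 to 0.32 in Col and from -0.27 to 0.40 in ahp4, again with overlap. Other hormone lists had medians of 0.02 (auxin, 20 tested), 0.03 (ethylene, 14), 0.05 (gibberellin, 10), 0.01 (brassinosteroid, 8) and -0.003 (salicylate, 8), with no called member. In the gibberellin list GA20OX2, which makes the hormone, differed by 0.38 ± 0.17 (unadjusted p = 0.0401), and GA2OX6, which inactivates it, by -0.82 ± 0.37 (unadjusted p = 0.0453).

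Photosynthesis and greening genes had small differences. All 17 tested nuclear photosynthesis genes had a negative difference, from -0.32 ± 0.23 (RBCS1B, a small subunit of Rubisco) to -0.04 ± 0.15 (LHCB1.3, a light-harvesting protein). None of the 17 had an unadjusted p under 0.05, and the median of -0.12 went to -0.02 after quantile normalization and -0.05 with equal totals. HEMA1, an enzyme early in chlorophyll synthesis, had 255 to 348 FPKM in Col and 215 to 286 FPKM in ahp4 (-0.26 ± 0.08, unadjusted p = 0.00534, adjusted p = 0.851). The 5 reference genes, among them ACT2 (-0.18 ± 0.10) and UBQ10 (-0.19 ± 0.15), also had negative differences, with a median of -0.09 that was -0.03 with equal totals. Chloroplast-encoded transcripts, which carry few of the reads in these polyadenylated libraries, had a median of -0.12 over 93 tested.

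Lists on growth and cell types had small medians of either sign. The 6 nucleolar genes had positive differences, with a median of 0.10 (0.15 after quantile normalization). FIB2, a fibrillarin of ribosomal RNA processing, had 48.0 to 54.1 FPKM in Col BA and 62.3 to 69.5 in ahp4 BA, and 16.6 to 20.4 against 16.0 to 25.2 FPKM under mock (0.23 ± 0.09, unadjusted p = 0.0167, adjusted p = 0.851). The cell cycle list had a median of 0.04 over 11 members. The stomatal lineage markers had a median of 0.14 over 10 members, led by EPF2, a peptide that limits the number of stomata, with 3.55 to 7.30 FPKM in Col and 3.76 to 10.2 FPKM in ahp4 (0.38 ± 0.17, unadjusted p = 0.0396). The phytochrome gene PHYA had 45.6 to 58.7 FPKM in Col and 55.8 to 63.6 FPKM in ahp4 (0.21 ± 0.06, unadjusted p = 0.00461, adjusted p = 0.851). MYB28, a regulator of aliphatic glucosinolates, differed by 0.42 ± 0.18, while 9 of the 10 members of its list were negative, with a median of -0.20. Of the root markers CASP1 and CASP2, endodermal proteins, were tested, at -0.51 ± 0.24 and -0.02 ± 0.19.

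**Figure D5:**
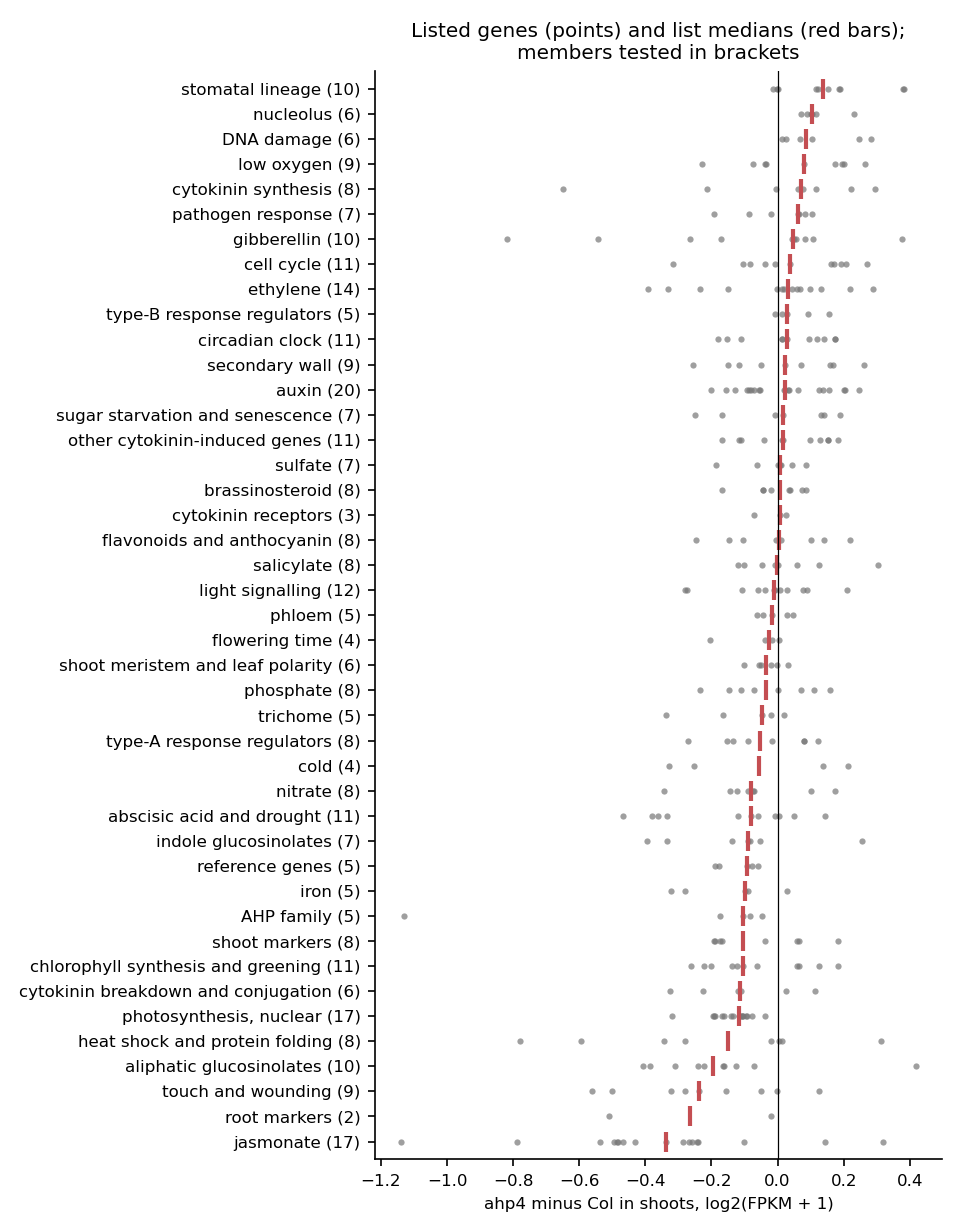
Log2 difference between ahp4 and Col shoots for each tested member (points) of the lists of nuclear genes and of markers, ordered by the list median (red bars), with the number tested in brackets. Medians run from -0.34 for jasmonate to 0.14 for the stomatal lineage, and no point passed the threshold of the test across all genes.

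The genes near AHP4 and near AT4G06835 were looked at as 2 stretches of the genome. Among the 100 annotated genes on either side of AHP4, 117 were tested, none was called, and 4 had an unadjusted p under 0.05 (3.42%, beside 5.4% of all genes), with a median difference of -0.02. Around AT4G06835, 101 of 199 neighbours were tested, none was called by limma, and 10 had an unadjusted p under 0.05 (9.90%, beside 5.4% of all genes), with a median of -0.03. The smallest p and the largest difference of these neighbours were those of MIR168a, a microRNA gene, at -1.35 ± 0.43 (unadjusted p = 0.0068, adjusted p = 0.851). Its levels were low, with a mean of 4.75 FPKM in Col and 0.929 FPKM in ahp4. The closest tested genes were AT4G18650, 3263 bases away, at -0.70 ± 0.36 (unadjusted p = 0.0701), MRH1 at 0.01 ± 0.16 and AT4G18670 at 0.11 ± 0.07.

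Set beside the roots, the shoots had fewer called genes, but the 2 counts rest on unlike sets. There were 14 shoot libraries, 6 of them ahp4, and 16 root libraries, 8 of them ahp4, each organ with its own filter. The counts alone thus do not compare the size of the genotype effect between organs. Of 19418 genes tested in roots, 12 were called (0.0618%), 9 higher (0.0463%) and 3 lower (0.0154%) in ahp4. The root count was 5 without ahp4 root mock replicate 3 or Col root BA replicate 1, 6 without Col root mock replicate 3 or ahp4 root mock replicate 4, 7 without Col root mock replicate 1 and 20 without ahp4 root BA replicate 1. Without ahp4 root mock replicate 1, whose labels disagree, the root count was 8, with VSP2 and AT2G27535 among the calls lost. Over both organs in 1 fit, 0.0432% of 20818 genes were called. AT4G06835 was the 1 gene called in both organs, which is 8.33% of the root calls. Among the other root calls UMAMIT17, an amino acid transporter gene, differed by 1.39 ± 0.14 in roots and 0.31 ± 0.24 in shoots, where it was low (0.0765 to 3.104 FPKM in Col). AT5G35940 differed by -1.51 ± 0.16 in roots and -0.34 ± 0.20 in shoots. The cytochrome P450 gene CYP78A8, at 1.62 ± 0.13 in roots, did not pass the filter in shoots, with 0 to 0.345 FPKM in Col and 0.0721 to 1.12 FPKM in ahp4. VSP2 differed by 1.07 ± 0.18 in roots and 0.32 ± 0.30 in shoots. The difference between organs was itself tested for each gene expressed in shoots, and limma called none of 18246, with 1569 at an unadjusted p under 0.05 (8.6%).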

How the data were processed

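RNA from 30 libraries was sequenced as paired 150 base reads, per the labels' protocols. The authors deposited one table of FPKM values per gene, on the TAIR10 build per the submitters' processing notes. Aligner, counter and strand setting: not given in the sources used here. FPKM values were whole multiples of a step per gene, so whole reads were rebuilt (tolerance 0.01 reads), and their scale equalled median-of-ratios size factors. This held for 100% of the features above 0 in any library, while 6306 of 33199 were at 0 in all. The shortest gene length that gave whole reads was taken, so rebuilt reads of genes with few reads may be too small by a common factor. Gene lengths implied by the steps equalled TAIR10.1 exon lengths for 81.7% of 26322 genes. Names, positions and the sequence came from RefSeq TAIR10.1, and the deposited table gives no positions.

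The main test was limma 3.58.1 in R 4.3.3 with a mean-variance trend on log2(FPKM + 1), with genotype and treatment as terms, a filter of FPKM 1 in 3 or more of the 14 shoot libraries, and Benjamini-Hochberg adjustment over all of them; an adjusted p under 0.05 was a call. Interactions and organ differences used fits of the 4 shoot or all 8 groups. limma-voom on rebuilt reads was added after the data were seen. The AHP4 level had an exact permutation test within treatments. Alternatives were pseudocount, filter, scaling, replicate block, pooled fits and leaving out each library. The fit was checked on simulated data. Sequence matches were found with blastn 2.17.0, and tables and figures used python 3.11.15, numpy 2.4.6, pandas 2.3.3 and matplotlib 3.10.9. Genes were named by a rule: the 15 of smallest p, as fewer than 10 were called, the 5 symbols of smallest interaction p, the AHP and type-A families and the member of smallest p of each list. Other members are named for the ends of their list or their roles, and the comparison, the lists and the rule were chosen with earlier results of these data known. Counting error limits genes under 1 FPKM, which often rest on fewer than 10 reads.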

Additional observations from a re-analysis of the deposited data

Results flagged for a closer look

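In Col groups of 4 libraries, 155 sets of values of named genes were examined for a library far from the other 3, and 10 were found; chance alone gives about 1 in 20. In Col shoot BA, AT5G08805 had 0.951 FPKM in replicate 4 and 0 in the others, AHP4 had 3.71 FPKM in replicate 3 and 1.61 to 1.88 in the others, and AT5G09255 had 1.51 FPKM in replicate 2 and 5.60 to 7.00 in the others. JAZ2 had 25.4 FPKM in replicate 2 of that group, with 33.7 to 35.5 in the others, and RBCS1A had 15257 FPKM in replicate 4, with 19760 to 20454 in the others. In Col shoot mock, replicate 2 was apart for ARR5, with 5.77 FPKM against 2.33 to 2.76, for APR3, a sulfate assimilation enzyme, with 25.6 against 13.2 to 14.4, for ACT2, with 278 against 250 to 252, and for AT5G08135, with 0.793 against 1.46 to 1.59. AT1G22180 had 7.00 FPKM in replicate 4 of that group and 5.25 to 5.48 in the others. For no named gene tested in shoots did the shoot genotype difference differ between mock and BA at a limma adjusted p under 0.05. Nor did it differ from the root difference at that threshold in the fit of all 30 libraries. Whether the genotype difference in roots depended on treatment was not tested.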

How the results depend on the processing

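AT4G06835 was the 1 gene called in the pooled shoot comparison under each alternative run, among them pseudocount, filters, scalings, limma-voom and leaving out each library. Within mock shoots the count of 1 became 0 with a pseudocount of 0.1 and 2 with no filter (with AT2G27535). Within BA shoots it became 2 with no filter (with AT5G08665) and was 1 to 2 when each library was left out, with 2 without Col shoot mock replicate 2. The 12 root calls ranged from 5 to 20 on leaving out each library and the 9 calls over both organs from 8 to 12, with 5 over both organs at a pseudocount of 0.1. The genotype by organ count of 0 ranged from 0 to 1. It was 1 without Col root mock replicate 2 (AT3G13230) or Col root BA replicate 3 (AT4G06835). Deviations of same-numbered shoot libraries correlated at 0.32 for replicate 1 of Col BA and ahp4 BA. They correlated at 0.24 for replicate 1 of Col mock and Col BA, and from -0.13 to 0.13 elsewhere. The labels do not state that a number marks a shared culture, so the numbers were not taken as pairs in the main test. With a replicate block 1 gene was called in shoots (1664 at an unadjusted p under 0.05, beside 985), 22 in roots and 10 over both organs. Signs turned with equal totals for AHP2 (0.0205), ARR15 (0.0367) and YAB1 (0.0124), and with the replicate block for ARR5 (-0.0358) and ARR7 (-0.0519). On leaving out 1 library, values ranged from -0.168 to 0.0511 for ARR15, -0.336 to 0.145 for ARR6, -0.125 to 0.268 for ARR7, -0.115 to 0.0261 for AHK2 and -0.0147 to 0.0583 for SUC2. The AHP4 level ranged from -1.23 to -0.96 on leaving out 1 library, with exact permutation p from 0.00143 to 0.00571. The smallest p possible there was 0.00143 without a Col library and 0.0019 without an ahp4 library, as fewer arrangements remain. With equal totals the AHP4 difference was -1.09 with an exact permutation p of 0.00245, above the smallest possible of 0.000816. The cause of these changes was not tested. Of the other results, 2034 values of named genes and 180 counts or AHP4 levels kept their direction and their side of the threshold. Genes resting on a few reads, such as AT5G08805, are limited by counting error.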

Other observations

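The genotype difference averaged over shoots and roots was tested in 1 fit of all 30 libraries, a comparison chosen after the data were seen. It does not test whether the organs have equal differences. Of 20818 genes 9 were called (0.0432%), 7 higher and 2 lower in ahp4: AT4G06835, CYP78A8, AT5G35940, an unannotated transcript model, UMAMIT17, AT2G27535, AT5G52070, ATC and AHP4. With a pseudocount of 0.1 the calls of ATC, UMAMIT17, AT5G35940 and AHP4 were lost. ATC, a relative of the flowering repressor TFL1, differed by 0.70 ± 0.20 in shoots and 0.84 in roots, and by 0.77 ± 0.13 over both (limma adjusted p = 0.00617, but 0.0721 with a pseudocount of 0.1). Its shoot levels were low, with 0 to 0.810 FPKM in Col and 0.463 to 2.79 FPKM in ahp4, so it passed the filter there through ahp4 libraries alone. AT5G52070 differed by 0.38 ± 0.10 in shoots and 0.34 in roots (0.36 ± 0.06 over both, adjusted p = 0.00617). The unannotated model differed by 0.55 ± 0.08 over both organs (adjusted p = 0.000636). In BA roots it had 3.05 to 5.15 FPKM in Col and 9.55 to 13.3 FPKM in ahp4, and in mock roots 0.581 to 1.302 against 0.644 to 1.29 FPKM. AHP4 differed by -0.76 ± 0.14 over both (limma adjusted p = 0.0329), a call lost in 18 of the 30 settings that leave out 1 library. The setting without ahp4 root mock replicate 1, whose labels disagree, is among them.

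AT2G27535, at 0 in all 8 Col shoot libraries and with 5 reads over the 6 ahp4 ones, was too low for the filter in shoots. In roots it had 0 to 2.30 FPKM in Col and 1.499 to 3.64 FPKM in ahp4. CYP94B3, a jasmonate-inactivating hydroxylase named after its values were seen, had the lowest shoot estimate of all tested genes, -1.37 ± 0.63 (unadjusted p = 0.0439, adjusted p = 0.851). It had 17.3, 4.68, 6.24 and 1.38 FPKM in Col mock, 17.1, 1.27, 0.323 and 26.5 FPKM in Col BA and 0.240 to 2.91 FPKM in ahp4, so the genotypes overlapped.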
